A study of Homo sapiens with 6 samples.

Results

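The genes described here are 10 genes of triglyceride metabolism and the lipid droplet, taken by symbol from a count table of 78932 genes: GPAM, AGPAT2, LPIN1, DGAT1, DGAT2, PLIN3, PNPLA2, LIPE, MGLL and ABHD5. They were measured by RNA-seq in T24, an established human bladder cancer cell line labelled as urothelial carcinoma, grown in serum-containing medium. Cultures transfected with a control siRNA (siNC, n = 3) were compared with cultures transfected with siRNA against TRIM28 (siTRIM28, n = 3), with 1 batch and biological replicates given in the labels. TRIM28 is a chromatin corepressor and SUMO E3 ligase, and the study asked how its loss changes the metabolism of these cells. The labels do not say which siRNA against TRIM28 was given or how long after transfection RNA was taken.

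Triglyceride is built by stepwise addition of fatty acids to glycerol-3-phosphate, mostly on the membrane of the endoplasmic reticulum, while GPAM is mitochondrial. GPAM and its isozymes add the first fatty acid, AGPAT enzymes add the next to give phosphatidic acid, lipins remove the phosphate to give diacylglycerol, and DGAT1 and DGAT2 add the last. The product collects in lipid droplets coated by perilipins such as PLIN3. Lipolysis runs in the opposite direction, with PNPLA2 (ATGL), activated by ABHD5 (CGI-58), followed by LIPE (hormone-sensitive lipase) and MGLL (monoacylglycerol lipase).

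Of the 10 genes, GPAM and PLIN3 fell and LIPE rose after TRIM28 silencing, and the other 7 did not pass the test. Promoter sequences of these 3 genes are shown because their transcripts were the ones that changed, in opposite directions. The sequences are from RefSeq (build GRCh38.p14) and run 5′ to 3′ on the strand of the gene. They cover the 250 bases before a transcription start and the 50 bases from it on. Capitals mark CCAAT, or ATTGG where it lies on the other strand, the only marked pattern of the several that were searched.
GPAM, chr10:112183716-112184015, minus strand: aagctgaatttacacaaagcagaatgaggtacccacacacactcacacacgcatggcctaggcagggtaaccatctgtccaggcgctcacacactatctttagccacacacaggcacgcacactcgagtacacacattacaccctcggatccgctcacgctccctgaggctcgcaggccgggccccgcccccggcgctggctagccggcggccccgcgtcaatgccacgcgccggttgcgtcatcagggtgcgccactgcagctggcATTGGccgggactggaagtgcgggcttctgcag
PLIN3, chr19:4867618-4867917, minus strand: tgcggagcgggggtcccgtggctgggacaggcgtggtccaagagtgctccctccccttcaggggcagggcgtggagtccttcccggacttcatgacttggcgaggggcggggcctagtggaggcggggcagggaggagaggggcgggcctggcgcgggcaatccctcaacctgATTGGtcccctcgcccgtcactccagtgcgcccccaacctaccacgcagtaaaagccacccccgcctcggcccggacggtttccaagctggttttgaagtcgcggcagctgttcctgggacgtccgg
LIPE, chr19:42423536-42423835, minus strand: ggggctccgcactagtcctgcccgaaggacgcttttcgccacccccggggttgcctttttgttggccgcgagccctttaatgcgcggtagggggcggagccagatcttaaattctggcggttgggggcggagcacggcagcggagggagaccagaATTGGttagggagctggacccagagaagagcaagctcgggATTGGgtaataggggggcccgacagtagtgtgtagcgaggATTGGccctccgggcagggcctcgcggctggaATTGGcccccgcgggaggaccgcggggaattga

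RefSeq promoters of 7 of the 10 genes were used, with 12 starts in all. Promoters on chromosome 8, where DGAT1 lies, were left out of these 12 starts, but not of the pattern search or of the shares over all promoters. DGAT2 and MGLL had none of 300 bases at hand. CCAAT on either strand was found in the promoters of GPAM, PLIN3 and LIPE and in none of those of AGPAT2, LPIN1, PNPLA2 and ABHD5. By start, the letters were at the only start of GPAM, the only start of PLIN3 and both starts of LIPE, among the 12 starts. Over 35116 RefSeq promoters of 300 bases, 34.6% held these letters. That share is per promoter and is to be read beside the starts, not beside the genes. The ATTGG of GPAM began at position 18, with the start itself counted as position 1. That of PLIN3 began 77 bases before the start, which is position -77. LIPE had 4 matches in the promoter shown, beginning at positions -95, -55, -15 and 18, and 1 match at position -129 of a farther start (chr19:42427339-42427638). The GC box, GGGCGG on either strand, was found in promoters of all 7 genes and in 45.0% of all promoters. TCACNCCAC, the classical sterol regulatory element to which SREBP factors bind, was found only in the promoter of PNPLA2 among the 7 (position -153, on the other strand) and in 1.13% of all promoters. A direct repeat of AGGTCA spaced by 1 base, the type bound by PPAR and its partner, was found in none of the 7 and in 0.0228% of all promoters. A single AGGTCA was found in PNPLA2 alone and in 13.8% of all promoters, and the E-box CACGTG in none of the 7 and in 7.26% of all. These are letter matches in short windows and no binding was measured. Several patterns were searched, some genes had more than 1 start, and a link of CCAAT to the changes was not tested.

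The counting annotation gave each gene wider limits than the RefSeq start in some cases. GPAM (ENSG00000119927) spans chr10:112149865-112215377 in the count table, so the RefSeq start lies inside it. PLIN3 (ENSG00000105355) spans chr19:4838341-4867637 and LIPE (ENSG00000079435) chr19:42401497-42427149. The other synthesis genes were AGPAT2 at chr9:136673143-136687398, LPIN1 at chr2:11677595-11827409, DGAT1 at chr8:144314584-144326852 and DGAT2 at chr11:75759512-75801534. PNPLA2 lay at chr11:818914-825219, MGLL at chr3:127689062-128052190 and ABHD5 at chr3:43690108-43734364. All are GRCh38 coordinates and all counts are of whole genes, so no isoform was resolved.

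Total counts ranged from 12989362 to 13942383 in siNC and from 11712623 to 14018052 in siTRIM28. TRIM28 had 1419, 1393 and 1382 counts in siNC and 130, 96 and 109 in siTRIM28, a log2 fold change of -3.54 (edgeR quasi-likelihood test, adjusted p = 1.03e-10), so every library matched its label. siNC replicates 1 and 2 were closer to each other than to replicate 3 (chi-square per gene 1.079 against 4.594 and 4.664, where sampling noise gives about 1). siTRIM28 replicates 2 and 3 were closer to each other than to replicate 1 (1.238 against 6.987 and 6.303), and both close pairs still differed by more than sampling noise (chi-square tests over all genes of the table with at least 20 summed counts, p = 9.3e-14 and 1.6e-98). The labels call all 6 cultures biological replicates, but how separate the close pairs were is not given, and each pair counted as 1 sample would leave 2 samples in each group. With the pairs summed in this way, the log2 fold change was -1.45 for GPAM (edgeR adjusted p = 0.000536), -0.68 for PLIN3 (adjusted p = 0.000302) and 0.70 for LIPE (adjusted p = 0.0238). Of the cell type markers, 6 of 6 adipocyte genes had under 10 counts in every library, with summed counts of 0 to 4 in siNC and 1 to 2 in siTRIM28, and FABP4, CIDEC and CIDEA were at 0. Leukocyte markers (4 genes) summed to 1 to 6 counts in siNC and 1 to 3 in siTRIM28, and endothelial markers (3 genes) to 6 to 7 and 10 to 12. Fibroblast markers (4 genes) summed to 18 to 30 and 17 to 22. Epithelial and urothelial markers (12 genes) summed to 2520 to 2722 and 2498 to 3067, nearly all from KRT8 and KRT18, while 7 of the 12 had under 10 counts in every library, among them EPCAM, CDH1, KRT5 and UPK2, and UPK1B was at 0. The uroplakin UPK1A was at 17, 15 and 4 counts in siNC and 58, 38 and 34 in siTRIM28 (log2 fold change 1.94, edgeR adjusted p = 0.000548). In bulk RNA, fewer cells that express a gene and less RNA of it per cell cannot be told apart.

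Levels are given as CPM, counts scaled to library size by the TMM method. Each of the 10 genes had at least 10 counts in every library and was tested. At an adjusted p under 0.05 (Benjamini-Hochberg, over all genes tested), 3 of the 10 were called, beside 41.8% of the 18474 genes tested, so these genes were not called more often than genes in general. LIPE was called higher (1 of 10, beside 21.3% of all genes) and GPAM and PLIN3 lower (2 of 10, beside 20.5%). All 3 also changed by 0.58 or more on the log2 scale in either direction, and 17.0% of all genes met both thresholds. In the same 3 genes the CPM values of the groups did not overlap, as for 52.0% of all genes. The median log2 fold change was 0.02 over the 10 genes and 0.015 over all genes tested.

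**Figure D1:**
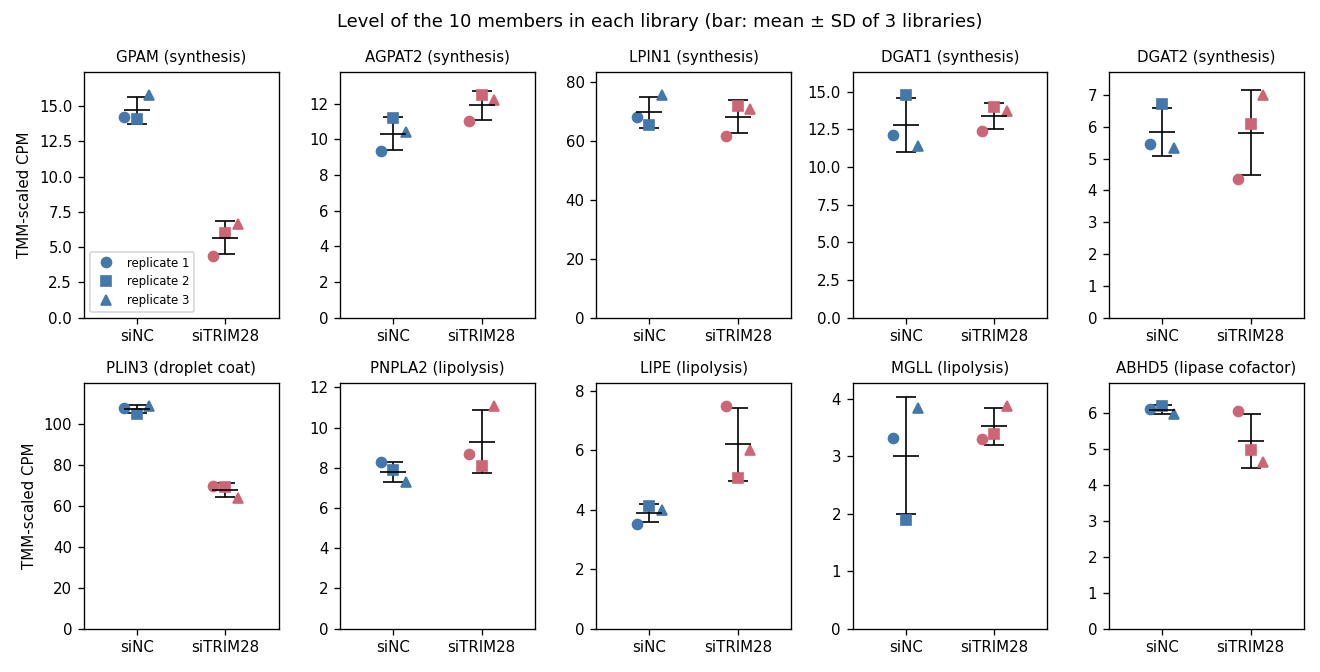
TMM-scaled CPM (linear axes from 0) of the 10 genes in each library, with blue symbols for siNC, red for siTRIM28 and 1 symbol shape per replicate, and bars for mean ± SD of 3 libraries. The groups do not overlap for GPAM, PLIN3 and LIPE and overlap for the other 7.

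Among the 5 genes of synthesis, GPAM fell, and AGPAT2, LPIN1, DGAT1 and DGAT2 did not pass the test and had CPM values that overlapped between the groups. GPAM, the mitochondrial glycerol-3-phosphate acyltransferase, had 197, 195 and 202 counts in siNC and 61, 71 and 79 in siTRIM28. Every siTRIM28 library was below every siNC library. The level fell by 61.7%, from 14.7 ± 0.985 to 5.67 ± 1.19 CPM (SD, n = 3 each). The log2 fold change was -1.38 (SE 0.134, 95% interval -1.68 to -1.09, edgeR adjusted p = 8.28e-06), and the exact two-sided permutation p was 0.1, the smallest that 3 against 3 can give. No gene with enough counts to be tested overlapped GPAM. Without siTRIM28 replicate 1 its log2 fold change was -1.21 and without siNC replicate 3 it was -1.33.

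AGPAT2, whose loss causes a congenital lipodystrophy, had 130, 155 and 133 counts in siNC and 154, 148 and 144 in siTRIM28. The log2 fold change was 0.20 (95% interval -0.02 to 0.42, edgeR adjusted p = 0.129), and the groups overlapped in CPM. LPIN1, a phosphatidate phosphatase that also acts in the nucleus, had 945, 902 and 964 counts in siNC and 862, 849 and 839 in siTRIM28. After scaling for depth its levels were 69.6 ± 5.39 and 68.0 ± 5.63 CPM, with a log2 fold change of -0.03 (95% interval -0.19 to 0.13, edgeR adjusted p = 0.753). The interval for LPIN1 was the narrowest among the genes that did not pass the test.

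DGAT1 and DGAT2 are unrelated proteins that catalyse the same last step. DGAT1 had 168, 205 and 145 counts in siNC and 174, 166 and 162 in siTRIM28, and DGAT2 had 76, 93 and 68 in siNC and 61, 72 and 83 in siTRIM28. In neither gene did the libraries separate by group. The log2 fold change of DGAT1 was 0.06 (95% interval -0.17 to 0.29, edgeR adjusted p = 0.674) and that of DGAT2 was -0.02 (95% interval -0.42 to 0.38, edgeR adjusted p = 0.938). HSF1 and UVRAG-DT overlap DGAT1 and DGAT2 on the opposite strand, with log2 fold changes of 0.1 and -0.03 (edgeR adjusted p = 0.39 and 0.913). ENSG00000254690, which overlaps DGAT1 on the same strand, was at 0.36 (edgeR adjusted p = 0.316). Exact permutation p values of the 4 synthesis genes that did not pass were 0.2 for AGPAT2, 0.7 for LPIN1, 0.6 for DGAT1 and 1.0 for DGAT2.

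PLIN3 (TIP47), an exchangeable perilipin that binds nascent droplets, fell. It had 1507, 1452 and 1393 counts in siNC and 974, 822 and 755 in siTRIM28, and had the most counts of the 10 genes in siNC. Its level fell by 37.1%, from 108 ± 2.33 to 67.6 ± 3.31 CPM (SD, n = 3 each). The log2 fold change was -0.67 (SE 0.0519, 95% interval -0.78 to -0.56, edgeR adjusted p = 1.41e-06), with an exact permutation p of 0.1. Without siTRIM28 replicate 1 it was -0.69 and without siNC replicate 3 it was -0.66. An unnamed gene on the opposite strand, ENSG00000267484, overlaps the 3′ end of PLIN3 and had 164, 147 and 122 counts in siNC and 97, 90 and 81 in siTRIM28, a log2 fold change of -0.59 (edgeR adjusted p = 0.00148). The sources do not say if reads were counted by strand, so reads of these overlapping genes cannot be told apart.

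Among the genes of lipolysis, LIPE rose and PNPLA2, MGLL and ABHD5 did not pass the test. LIPE had 49, 57 and 51 counts in siNC and 105, 60 and 71 in siTRIM28. The groups did not overlap after scaling for depth, at 3.53, 4.12 and 4.0 CPM in siNC and 7.5, 5.07 and 6.0 CPM in siTRIM28. Means were 3.88 ± 0.312 and 6.19 ± 1.23 CPM (SD, n = 3 each), an increase of 60.5%, and the highest value was that of siTRIM28 replicate 1, the library that stood apart from its group. The log2 fold change was 0.68 (SE 0.173, 95% interval 0.30 to 1.06, edgeR adjusted p = 0.00767), with an exact permutation p of 0.1. Without siTRIM28 replicate 1 it was 0.51 (edgeR adjusted p = 0.024), and with DESeq2 it was 0.65 (adjusted p = 0.0373). LIPE lies within LIPE-AS1 on the opposite strand, which had 89, 91 and 93 counts in siNC and 122, 71 and 87 in siTRIM28 (log2 fold change 0.13, edgeR adjusted p = 0.508). LIPE-AS1 was highest in the same library as LIPE, and the part of shared reads in the result was not tested.

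PNPLA2, the lipase that opens triglyceride breakdown, had 115, 109 and 93 counts in siNC and 122, 96 and 132 in siTRIM28. Its log2 fold change was 0.25 (95% interval -0.04 to 0.54, edgeR adjusted p = 0.155), and siTRIM28 replicate 3 was the highest library, without which the log2 fold change was 0.10. The opposite-strand gene ENSG00000255108, which overlaps PNPLA2, had 51, 49 and 35 counts in siNC and 62, 62 and 69 in siTRIM28 (log2 fold change 0.62, edgeR adjusted p = 0.0132). ABHD5, its activator, had 85, 86 and 76 counts in siNC and 85, 59 and 55 in siTRIM28, with a log2 fold change of -0.21 (95% interval -0.52 to 0.10, edgeR adjusted p = 0.261). siTRIM28 replicate 1 of ABHD5 lay within the siNC range at 6.07 CPM and the other siTRIM28 libraries lay below it at 4.98 and 4.64 CPM. ANO10, which overlaps ABHD5 on the opposite strand, had a log2 fold change of -0.23 (edgeR adjusted p = 0.034).

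MGLL, which releases the last fatty acid and also degrades an endocannabinoid, had 46, 26 and 49 counts in siNC and 46, 40 and 46 in siTRIM28. Its log2 fold change was 0.23 (95% interval -0.29 to 0.74, edgeR adjusted p = 0.474), the widest interval of the 10 genes, and siNC replicate 2 was the low library. Exact permutation p values were 0.2 for PNPLA2, 0.2 for ABHD5 and 0.5 for MGLL. Without siNC replicate 2 the log2 fold change of MGLL was -0.03. Its interval included 0 and also a rise of the size seen for LIPE. SEC61A1, which overlaps MGLL on the opposite strand, had 970, 988 and 907 counts in siNC and 848, 763 and 785 in siTRIM28. Its log2 fold change was -0.15 (edgeR adjusted p = 0.0409).

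Levels of different genes were compared per length, as RPKM computed from the counts, the gene lengths of the table and the scaled library sizes. A single length was given per gene, such as 11861 bases for LPIN1 and 1832 for AGPAT2. It need not be that of the transcripts present, so the order between genes and the family shares depend on it. In siNC the order was PLIN3 (39.3 ± 0.849 RPKM), LPIN1 (5.87), AGPAT2 (5.64), DGAT1 (3.09), PNPLA2 (2.04), GPAM (1.50), ABHD5 (0.809), LIPE (0.750), DGAT2 (0.739) and MGLL (0.266). The ranges over libraries overlapped for LPIN1 and AGPAT2, for ABHD5 and LIPE, and for LIPE and DGAT2, and did not overlap for the other neighbours. In siTRIM28 the order was PLIN3 (24.7 ± 1.21 RPKM), AGPAT2 (6.49), LPIN1 (5.74), DGAT1 (3.24), PNPLA2 (2.43), LIPE (1.19), DGAT2 (0.736), ABHD5 (0.694), GPAM (0.579) and MGLL (0.311). There the overlapping neighbours were AGPAT2 and LPIN1, DGAT2 and ABHD5, and ABHD5 and GPAM. GPAM thus stood at rank 6 in siNC and rank 9 in siTRIM28, and LIPE at rank 8 and rank 6. PLIN3 remained the gene with the highest level per length in every library of both groups.

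The share that each member held of its isozyme family was described in the same unit, with no test of the shares. GPAM made up 11.3% ± 0.397 of the summed RPKM of the glycerol-3-phosphate acyltransferases in siNC and 3.28% ± 0.672 in siTRIM28 (SD, n = 3 each). GPAT3, an isozyme of the endoplasmic reticulum, went from 39.0% ± 1.07 to 54.6% ± 0.859, and GPAT4 from 49.3% ± 1.27 to 41.8% ± 1.26. The level of GPAT4 rose, from 51.6 ± 1.12 to 58.4 ± 1.47 CPM (log2 fold change 0.18, edgeR adjusted p = 0.0194). The family sum was 13.2 ± 0.421 RPKM in siNC and 17.6 ± 0.379 RPKM in siTRIM28, so the sum was higher although GPAM was lower. GPAM was the smallest of the 3 isozymes with a measurable level in both groups, and GPAT2 was under 1% of the sum in every library.

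In the AGPAT family the sum was 22.2 ± 0.406 RPKM in siNC and 18.8 ± 0.735 RPKM in siTRIM28. The share of AGPAT2 was 25.4% ± 1.82 in siNC and 34.7% ± 3.57 in siTRIM28, while that of AGPAT3 was 16.2% ± 1.35 and 5.72% ± 0.201. LPIN1 held 52.6% ± 2.8 of the lipins in siNC and 47.8% ± 1.65 in siTRIM28. DGAT1 held 80.7% ± 0.313 of the DGAT sum in siNC and 81.6% ± 2.82 in siTRIM28. PLIN3 held 92.7% ± 0.272 of the perilipins in siNC and 86.8% ± 1.21 in siTRIM28, and PLIN2, the perilipin found on droplets of most cells, held 7.12% ± 0.17 and 13.0% ± 1.16. The perilipin sum went from 42.3 ± 0.802 to 28.4 ± 1.32 RPKM, with PLIN1, PLIN4 and PLIN5 each under 1% of it.

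**Figure D2:**
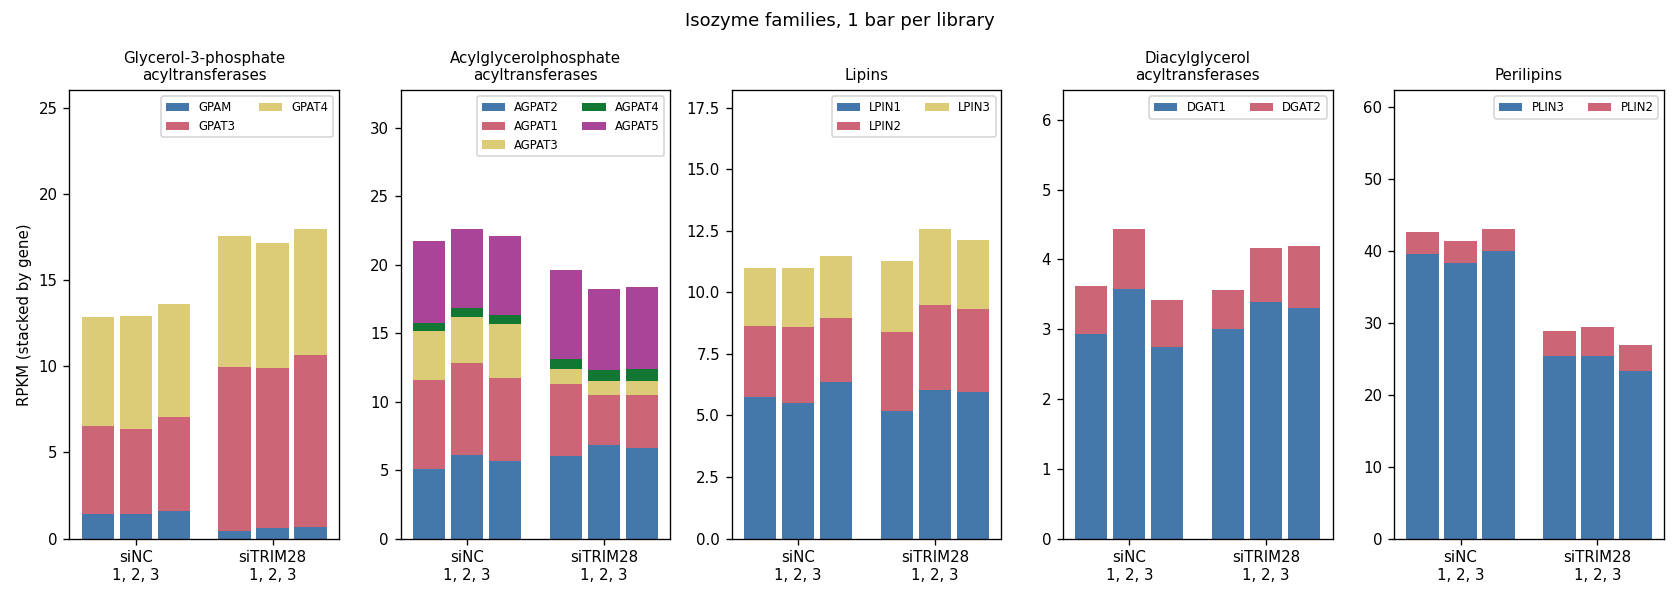
RPKM of the isozymes of 5 families, stacked by gene, with 1 bar per library (linear axes from 0, without GPAT2, PLIN1, PLIN4 and PLIN5, siNC replicates 1, 2 and 3 on the left and siTRIM28 on the right of each panel). The GPAM segment shrinks while the sum with GPAT3 and GPAT4 is higher in siTRIM28, and the PLIN3 segment sets the height of the perilipin bars.

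Other genes of the pathway were counted from a list of 50, of which 32 passed the filter on low counts. Of these 32, 11 rose and 7 fell (18 in all, 56.2%, beside 41.8% of all genes tested), with a median log2 fold change of 0.08 beside 0.015. Called and changed by 0.58 or more on the log2 scale were 8 of the 32, with 2 higher and 6 lower, beside 17.0% of all genes. The other 18 genes of the list had too few counts to test, among them PLIN1, PLIN4, PLIN5, CIDEA, CIDEC, FABP4 and CD36, genes typical of fat cells, heart and liver. With the close replicate pairs summed, 9 of the 32 were called (28.1%, beside 31.1% of all genes in that fit), and without siNC replicate 1, 11 of the 32 (34.4%, beside 34.9%). DESeq2 called 10 of 33 genes with an adjusted p (30.3%, beside 26.3%). The share was thus lower than over all genes in the 2 former settings, and it was higher under the other settings tried.

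Among synthesis paralogs and lipin regulators (10 tested), 4 rose and 3 fell (70.0%, beside 41.8% of all genes tested). GPAT3 rose from 18.7 ± 0.964 to 34.9 ± 1.25 CPM (log2 fold change 0.90, edgeR adjusted p = 1.06e-06), with 257, 246 and 251 counts in siNC and 484, 400 and 429 in siTRIM28. This direction was the opposite of that of its isozyme GPAM. AGPAT3, which acylates lysophosphatidic acid and other lysophospholipids, fell from 44.3 ± 3.28 to 13.2 ± 0.105 CPM (log2 fold change -1.74, edgeR adjusted p = 1.71e-08), the largest change among the 32 genes. AGPAT1 had 323, 334 and 278 counts in siNC and 266, 155 and 163 in siTRIM28 and fell by 0.58 on the log2 scale (edgeR adjusted p = 0.00194). CTDNEP1, the phosphatase that activates lipins and the gene with the highest RPKM of this role, fell from 51.6 ± 2.81 to 26.1 ± 1.43 CPM (log2 fold change -0.98, edgeR adjusted p = 6.19e-07).

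Among genes of droplet coat and assembly (8 tested), 3 rose and 1 fell (4 of 8, beside 41.8% of all genes tested). FITM2, which helps to partition triglyceride into droplets, fell from 10.6 ± 0.914 to 4.48 ± 0.591 CPM (log2 fold change -1.24, edgeR adjusted p = 1.9e-05). AUP1, a droplet protein and the one with the highest RPKM of this role, rose by 0.22 on the log2 scale (edgeR adjusted p = 0.00782). The median log2 fold change of this role was 0.21, and the 4 genes that did not pass the test are counted in that median.

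Among genes of lipolysis and its inhibitors (8 tested), 4 rose and 2 fell (75.0%, beside 41.8% of all genes tested). Both small inhibitors of PNPLA2 were called, in opposite directions. G0S2 fell from 31.4 ± 2.01 to 19.2 ± 0.81 CPM (log2 fold change -0.71, edgeR adjusted p = 1.18e-05). HILPDA rose from 6.09 ± 0.403 to 11.8 ± 1.24 CPM (log2 fold change 0.95, edgeR adjusted p = 5.02e-05). ABHD4, a relative of ABHD5 that acts on phospholipids and not on triglyceride, fell by 0.65 on the log2 scale (edgeR adjusted p = 0.0019). FAF2, which extracts proteins from droplets and had the highest mean RPKM of this role over the 6 libraries (G0S2 was higher in siNC, at 35.9 against 30.4 RPKM), had a log2 fold change of 0.13 (edgeR adjusted p = 0.019).

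Among genes of fatty acid activation and uptake (6 tested), only FABP5 passed the test, with none higher (16.7%, beside 41.8% of all genes tested). FABP5, a fatty acid chaperone, had the highest RPKM of this role and went from 321 ± 5.4 to 279 ± 17.0 CPM (log2 fold change -0.21, edgeR adjusted p = 0.00443). PPARG, a nuclear receptor that controls many lipid genes and on which the study centred, had 93, 90 and 105 counts in siNC and 90, 98 and 93 in siTRIM28. Its transcript had a log2 fold change of 0.07 (95% interval -0.24 to 0.38, edgeR adjusted p = 0.728).

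**Figure D3:**
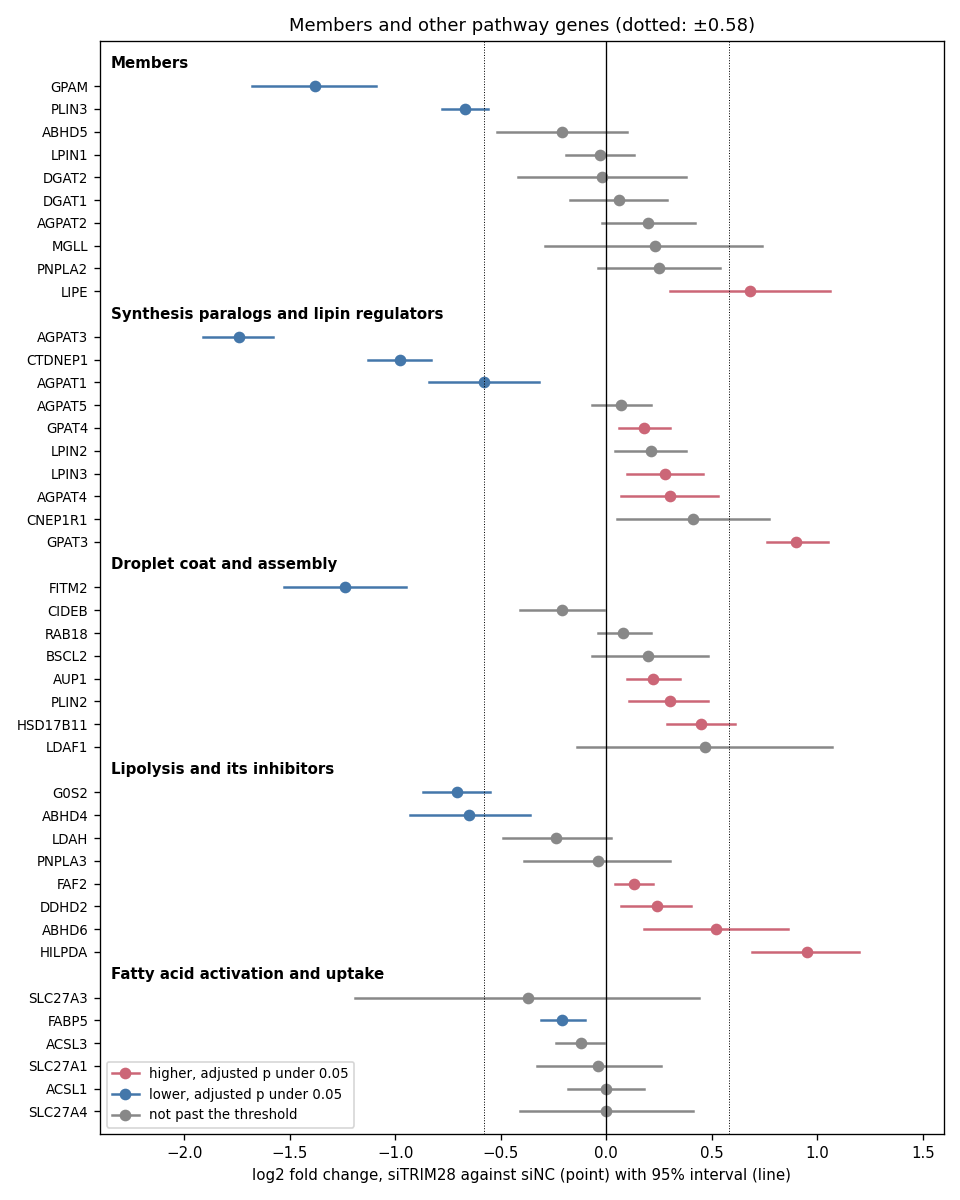
Log2 fold change of siTRIM28 against siNC (points) with 95% intervals (lines) for the 10 genes and the 32 tested pathway genes, by role, with red for higher, blue for lower and grey for genes that did not pass an adjusted p of 0.05. AGPAT3 at -1.74 is farthest to the left, next to GPAM at -1.38 and FITM2 at -1.24, and HILPDA at 0.95 is farthest to the right.

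**Figure D4:**
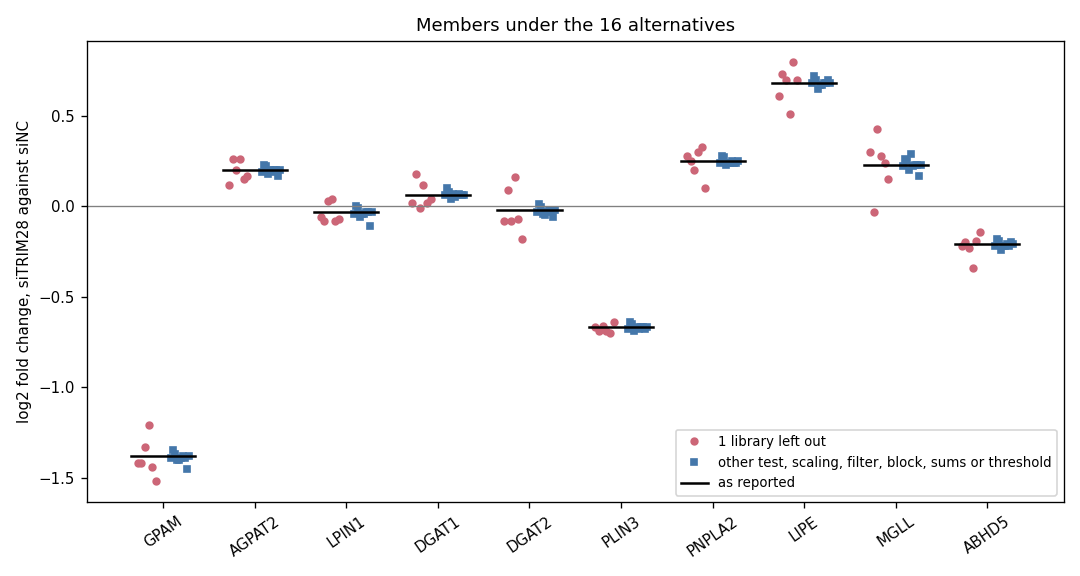
Log2 fold change of the 10 genes as reported (black lines), with 1 library left out (red circles) and under the other settings (blue squares), 16 alternatives in all. GPAM stays between -1.52 and -1.21, PLIN3 between -0.70 and -0.64 and LIPE between 0.51 and 0.80, and the points of LPIN1, DGAT1, DGAT2 and MGLL cross 0.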

How the data were processed

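Polyadenylated RNA of 6 cultures was sequenced from stranded libraries. The deposited table holds unnormalized read counts for 78932 genes, each with its GRCh38 position and length. The submitters' processing notes name fastp 0.23.1, STAR 2.7.6a and featureCounts without a version. The annotation release, the strand setting and the handling of duplicate reads are not given in the sources used here. RPKM values that the authors deposited for genes they chose as differentially expressed were not used.

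Samples were grouped by their labels. The quasi-likelihood test of edgeR 4.0.16 (R 4.3.3) was applied to the counts with TMM factors and the condition alone in the model. A gene was tested if 3 or more libraries had 10 or more counts of it. Benjamini-Hochberg adjustment ran over all 18474 genes tested, and calls were made under 0.05. The study's methods name no test for its RNA-seq, and the second threshold of 0.58 is the one it uses for patient cohorts. Log2 CPM with a prior count of 2 was used for exact permutation tests. RPKM was computed from these counts, the deposited lengths and scaled library sizes. The code was tested on simulated data. Counting noise is large for genes near 10 counts, and the common biological coefficient of variation was 0.0733. P-values measure the spread between these cultures alone.

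The 10 genes and all gene lists were chosen with earlier results of these data known. Named genes are the 10 genes, TRIM28, PPARG, the pathway genes past both thresholds and, in each role, the gene of highest mean RPKM over all libraries. Marker genes, overlapping genes, isozymes and the genes of the closing observations were named besides. The alternatives were DESeq2 1.42.0, scaling by RLE, upper quartile or total counts, limma-voom (limma 3.58.1), other filters on low counts, the replicate number as a block, 1 library left out, close replicate pairs summed and a stricter threshold.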

Additional observations from a re-analysis of the deposited data

How the results depend on the processing

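Under all 16 alternatives 3 of the 10 genes were called, and GPAM, PLIN3 and LIPE kept their direction and call in each. The share called over all genes ran from 17.4% with no filter beyond 1 count in total to 45.0% without siTRIM28 replicate 1. Genes that did not pass stayed so, but some changed sign. With upper-quartile scaling LPIN1 was at 0.001 and DGAT2 at 0.01 (log2). With 1 library left out, AGPAT2 ranged from 0.12 to 0.26, PNPLA2 from 0.10 to 0.33, ABHD5 from -0.34 to -0.14, LPIN1 from -0.08 to 0.04, DGAT1 from -0.01 to 0.18, DGAT2 from -0.18 to 0.16 and MGLL from -0.03 to 0.43. The number of pathway genes called was 18 as reported (56.2%, beside 41.8% of all genes tested) and 10 with DESeq2 (30.3%, beside 26.3%). It was 9 with close pairs summed (28.1%, beside 31.1%) and 11 at an adjusted p under 0.01 (34.4%, beside 29.2%). With 1 library left out it ran from 11 without siNC replicate 1 (34.4%, beside 34.9%) to 18 without siTRIM28 replicate 1 (56.2%, beside 45.0%). Same-numbered libraries of the 2 groups had deviations with correlations of 0.0523, -0.0118 and 0.0374. The highest correlations with another number were -0.0259, 0.0263 and 0.0387, for siNC replicates 1, 2 and 3 in turn. With 3 libraries per group these values cannot settle if the numbers pair the libraries. With the replicate number as a block, 3 of the 10 genes and 7910 of all genes were called, against 7723 without it, and LIPE had a log2 fold change of 0.68 (adjusted p = 0.00704). Over all genes DESeq2 called 5306.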

Other observations

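Phosphatidic acid and diacylglycerol also feed the synthesis of phospholipids. A list of 25 genes of that branch was written after the data had been seen, and 23 of them had enough counts to test. Of these, 5 rose and 3 fell (34.8%, beside 41.8% of all genes tested), with a median log2 fold change of -0.04. PCYT1A, the rate-limiting enzyme of phosphatidylcholine synthesis, fell from 69.8 ± 1.44 to 40.7 ± 4.32 CPM (SD, n = 3 each; log2 fold change -0.77, edgeR adjusted p = 6.72e-06). It had 979, 943 and 902 counts in siNC and 640, 453 and 452 in siTRIM28. DGKD, a kinase that turns diacylglycerol back into phosphatidic acid, rose by 0.62 on the log2 scale (edgeR adjusted p = 6.31e-06), with 556, 563 and 526 counts in siNC and 836, 739 and 771 in siTRIM28. PISD, which makes phosphatidylethanolamine in mitochondria, fell by 0.42 on the log2 scale (edgeR adjusted p = 0.00134). The other called genes were DGKZ at -0.29, DGKA at 0.28, DGKH at 0.33, LPCAT1 at 0.39 and LPCAT4 at 0.40 on the log2 scale. DGKZ, DGKA and DGKH are diacylglycerol kinases, and LPCAT1 and LPCAT4 reacylate lysophospholipids.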
